A study of Mus musculus with 45 samples.

Results

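Collagens are the main structural proteins of the extracellular matrix. Every mouse gene whose symbol reads Col, a number, the letter a and a number was taken as a collagen gene, a rule that uses no measured value. It found 44 collagen genes among the 35675 genes of the files: 11 fibrillar, 8 of basement membranes (type IV, XV and XVIII chains), 9 FACIT (fibril-associated collagens with interrupted triple helices), 6 of type VI and 10 others. Reads could be tested for 43 of them; Col9a1, with at most 0.741 CPM in any library, did not pass the filter on low counts.

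Collagen chains fold into a triple helix in the endoplasmic reticulum, are trimmed of their propeptides outside the cell and are then cross-linked. Fibrillar collagens build the fibrils of connective tissue, and FACITs decorate those fibrils. In skeletal muscle each fibre, together with its stem cells, lies inside a basement membrane whose network is type IV collagen, and type VI collagen forms beaded filaments between that membrane and the interstitial matrix. Muscle fibroblasts make most of the type VI collagen of muscle, and mutations in its chains cause congenital muscular dystrophies.

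RNA was measured by bulk RNA-seq in 45 libraries, 15 groups of 3, all of the genotype Tg:Pax7-nGFP/C57BL6;DBA2, which carries a green nuclear reporter for Pax7, the gene that marks muscle stem cells. Mouse embryonic fibroblasts (MEFs) with a doxycycline-inducible MyoD, the transcription factor that turns fibroblasts into muscle, were left untreated, or received doxycycline for 2, 4, 6, 8 or 10 days (MyoD alone), or doxycycline with the small molecules called F/R/C for the same times (MyoD with F/R/C). Induced myogenic progenitor cells (iMPCs) are the cells that F/R/C yields. Bulk iMPCs are labelled as grown in F/R/C medium with 13 days of doxycycline and F/R/C, and the design text calls them clones that no longer need doxycycline. Sorted iMPCs and sorted myoblasts are cells purified by their Pax7 reporter, and bulk myoblasts are untreated primary cultures from skeletal muscle. The labels do not say whether replicates are separate cultures or animals, so p-values measure the spread between these samples, which may be technical.

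Libraries held 15.6 to 36.3 M reads. Within a gene, levels are given as CPM, reads relative to the library size after TMM scaling, in the order of replicates 1, 2 and 3. Between genes and classes they are the deposited TPM, which is per transcript length. A gene is called higher or lower at a Benjamini-Hochberg adjusted p under 0.05 over all 17325 genes tested and a log2 fold change of at least 1 in either direction, in edgeR's quasi-likelihood fit of all 45 libraries. Markers of cartilage, endothelium, epithelium, Schwann cells and macrophages summed to at most 39.6 CPM a list in every library. MEFs held 160.4, 51.9 and 73.5 CPM of 11 differentiation genes of muscle, and MyoD libraries on day 2 held 15361, 23695 and 18420.0 CPM. A list of 9 fibroblast markers without collagens summed to 8744, 12801 and 17482 CPM in MEFs. Bulk iMPC replicate 2 stood apart, with 508 CPM of Pdgfra, a receptor of fibroblasts, against 44.3 and 13.1 CPM in the others of its group. Results that rest on it are given with and without it.

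Collagen RNA was lowest in myoblasts. All 44 genes summed to 8216, 5792 and 7495 TPM in MEFs, 6110.3, 5719 and 6569 TPM on day 2 and 8963, 2799 and 7168 TPM on day 10 of MyoD alone, and 3301, 1982 and 4659.9 TPM on day 10 under F/R/C. The sums were 2665, 3431 and 2945 TPM in bulk iMPCs, 1548, 3273 and 2782 TPM in sorted iMPCs, 1008, 1166 and 998 TPM in bulk myoblasts and 1142, 1159 and 443 TPM in sorted myoblasts. Every myoblast library lay below every library of the other groups. Among MyoD-only libraries, replicate 2 had the lowest sum on every day, and on day 10 it lay below 2 of the 3 libraries under F/R/C. In bulk RNA, fewer cells of a type and less RNA per cell cannot be told apart.

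The mixture of classes also varied between groups. Fibrillar chains made up 55.6% ± 7.79 (mean and SD, n = 3 here and below) of collagen TPM in MEFs and 56.5% ± 3.25 on day 10 of MyoD alone, but 32.6% ± 8.45 on day 10 under F/R/C and 19.0% ± 14.6 in sorted iMPCs. Basement membrane chains held 26.9% ± 6.86 in MEFs and 59.8% ± 12.6 and 62.8% ± 5.93 in sorted iMPCs and sorted myoblasts. Type VI chains held 10.1% ± 1.09 in MEFs, 1.38% ± 0.406 on day 2 of MyoD alone, 13.0% ± 4.71 on day 10 under F/R/C and 0.282% ± 0.146 in bulk myoblasts. FACIT chains never averaged more than 4.87%. Counted instead as CPM per kilobase of the longest protein-coding transcript, a scale chosen after seeing the data, the shares of fibrillar chains were 58.7% ± 6.10 in MEFs and 21.2% ± 14.2 in sorted iMPCs.

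**Figure D1:**
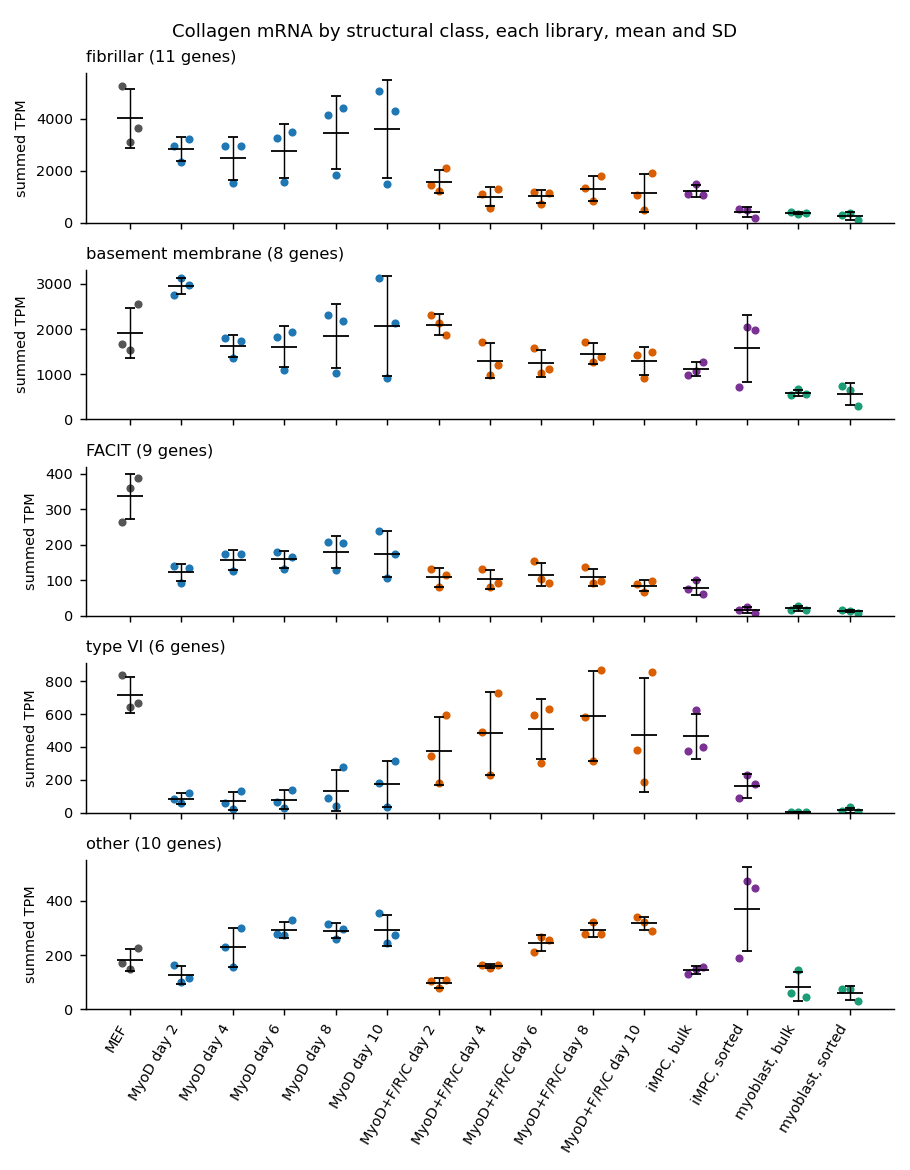
Summed deposited TPM of each collagen class (vertical axes, TPM) in the 15 groups (horizontal axis); points are libraries and bars the mean and SD. Type VI chains dropped from a mean of 717 TPM in MEFs to 85.6 TPM on day 2 of MyoD alone, stood at 375 TPM on day 2 under F/R/C, and were near 0 in myoblasts.

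The first comparison sets MyoD alone against untreated fibroblasts. Fibroblasts given doxycycline without MyoD, or kept untreated for the same days, were not among the groups. In every comparison with MEFs, MyoD, doxycycline and time in culture therefore cannot be told apart. On day 2, 3 of the 6 type VI genes had fallen, while Col5a2, a chain of type V collagen, and several rare chains had risen. Of the 43 genes tested, 15 were called (background over all genes 22.4%): 8 higher (background 12.3%) and 7 lower (10.1%). On day 10 again 15 were called (background 18.9%), 11 higher (14.3%) and 4 lower (4.64%). The median log2 fold change of the collagen genes was -0.44 on day 2 and 0.12 on day 10, against 0.00 and 0.01 over all genes tested. Both days are set against the same 3 MEF libraries.

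Col6a1 and Col6a2, chains of the type VI monomer, fell on day 2. Col6a1 was at 896, 895 and 806 CPM in MEFs and 117, 85.7 and 131 CPM on day 2 (log2 difference -2.96, SE 0.76; adjusted p 0.0027). Col6a2 was at 592, 467 and 381 CPM in MEFs and 45, 41.6 and 61.0 CPM on day 2 (log2 difference -3.29, SE 0.77; adjusted p 0.0011). All MyoD-only libraries lay below all MEF libraries for both genes. On day 10 Col6a2 was still called lower, at 77.6, 11.7 and 104 CPM (log2 difference -2.90, SE 0.75; adjusted p 0.0039). Col6a1 was then at 220.2, 55.9 and 340.2 CPM (log2 difference -2.08, SE 0.73; adjusted p 0.031); that call was lost without MEF replicate 1 or 2 or MyoD-only replicate 1 or 2 (adjusted p 0.055, 0.059, 0.067 and 0.17). Col6a5, a rare type VI chain, was called lower on day 2 with 2 reads in all against 0.44, 0.372 and 0.190 CPM in MEFs, a ratio of 10.5 (95% exact Poisson interval 2.92 to 87.0), and that call was lost without any 1 of 5 libraries (adjusted p 0.062 to 0.11). Col6a3, the large chain of the monomer, went from 537, 179 and 395 to 63.1, 39.4 and 182 CPM and was not called (adjusted p 0.12).

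Col5a2 belongs to type V collagen, which starts fibrils and limits their width, and rose from 623, 736 and 988 CPM in MEFs to 3267, 2684 and 2719.6 CPM on day 2 (log2 difference 1.89, SE 0.47; adjusted p 0.0022) and 3381, 1919 and 3878 CPM on day 10 (log2 difference 1.97, SE 0.47; adjusted p 0.0019). Its partner Col5a1 did not pass the test on either day (adjusted p 0.79 and 0.3), and neither did Col1a1 and Col1a2, the chains of type I collagen. Col1a1 was at 4817, 3647 and 3496 CPM in MEFs, 2214, 1259.6 and 2126 CPM on day 2 and 5229, 1244 and 3388 CPM on day 10. Col24a1, a minor fibrillar chain, fell from 19.7, 23.8 and 21.4 CPM to 3.02, 3.38 and 3.64 CPM on day 2 (log2 difference -2.69, SE 0.57; adjusted p 0.0004).

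The genes raised most are rare in fibroblasts. Col25a1, a transmembrane collagen that muscle uses to attract motor axons, rose from 1.05, 1.11 and 0.888 CPM to 36.9, 52.4 and 42.0 CPM on day 2 (log2 difference 5.41, SE 0.87; adjusted p 1.1e-05) and 144, 338 and 78.8 CPM on day 10 (log2 difference 7.5, SE 0.93; adjusted p 1.7e-07). Col13a1, a transmembrane collagen of the neuromuscular junction, had no reads in MEFs and 0.584, 1.78 and 0.674 CPM on day 2, at least 19.3-fold above a floor of 3 reads over the group (adjusted p 0.0019), and at least 68.4-fold on day 10. Col19a1, a FACIT of basement membrane zones, rose from 0.44, 0.279 and 0.380 CPM to 15.3, 19.2 and 15.4 CPM on day 2 (log2 difference 5.48, SE 0.67; adjusted p 1.4e-07) and was at 26.0, 51.5 and 16.3 CPM on day 10. Over all libraries, only 44.1% of Col19a1 reads were assigned to protein-coding transcripts. Its levels here and below are therefore not those of coding RNA alone. Col22a1, a FACIT of the junction of muscle and tendon, was at 0.0879, 0.604 and 0.317 CPM in MEFs and 0.243, 0.688 and 0.180 CPM on day 2, and had risen by day 10 to 23.5, 37.4 and 3.49 CPM (log2 difference 5.98, SE 1.07; adjusted p 6.3e-05), with replicate 3 lowest. Col4a6, an X-linked type IV chain, fell from 8.53, 40.0 and 26.8 CPM to 7.64, 3.02 and 4.11 CPM on day 10 (log2 difference -2.35, SE 0.58; adjusted p 0.0027).

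Of the 15 calls on each day, 8 were kept whichever 1 library was left out. The count on day 2 was 9 without MEF replicate 2 and also 9 without MyoD-only replicate 2, and the count on day 10 was 8 when only the 2 groups compared were fitted. Col14a1 (FACIT) and Col2a1 (fibrillar) were called on day 10 on the strength of replicate 1: Col14a1 was at 57.0, 0.495 and 0.662 CPM and Col2a1 at 11.3, 0.495 and 0.349 CPM, and without that library their adjusted p was 0.23 and 0.98.

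MEFs were then compared with MyoD and F/R/C. On day 2, 10 collagen genes were called (background 20.4%), 6 higher (11.5%) and 4 lower (8.93%); on day 10, 24 were called (background 34.8%), 12 higher (19.0%) and 12 lower (15.8%). The same MEF libraries enter here. By day 10 the type IV chain Col4a6 was nearly lost, and Col4a5 and type I collagen were reduced. Col13a1, Col19a1, Col25a1, Col26a1 and Col15a1 were raised.

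Col4a6 fell from 8.53, 40.0 and 26.8 to 0.397, 0.195 and 0.247 CPM (log2 difference -6.45, SE 0.73; adjusted p 2e-08), and its neighbour on the X chromosome, Col4a5, fell from 93.9, 232 and 269 to 13.0, 9.74 and 13.1 CPM (log2 difference -4.05, SE 0.40; adjusted p 1.9e-09). Col1a1 was called lower on both days, at 755, 433 and 1118 CPM on day 2 (log2 difference -2.38, SE 0.77; adjusted p 0.016) and 689.8, 307 and 1792 CPM on day 10 (log2 difference -2.10, SE 0.76; adjusted p 0.02). Its day 2 call was lost without F/R/C replicate 2 (adjusted p 0.086), and that of day 10 without MEF replicate 1 or F/R/C replicate 1 or 2 (adjusted p 0.053, 0.072 and 0.11). Col16a1, a FACIT, fell to 69.0, 45.3 and 71.5 CPM on day 2 (log2 difference -2.57, SE 0.59; adjusted p 0.0011) and 24.1, 10.9 and 37.1 CPM on day 10, from 213, 495 and 399 CPM. Over all libraries, 57.9% of its reads were assigned to protein-coding transcripts.

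Among the genes raised, Col26a1, a little-studied collagen, went from 0.703, 0 and 1.97 CPM in MEFs to 26.2, 23.5 and 38.9 CPM on day 2 (log2 difference 5.14, SE 0.70; adjusted p 9.1e-07) and 301, 271 and 203 CPM on day 10 (log2 difference 8.27, SE 0.77; adjusted p 5.9e-10). Col19a1 rose to 56.4, 81.4 and 50.6 CPM (log2 difference 7.40, SE 0.70; adjusted p 1.8e-09) and 80.4, 112 and 88.5 CPM (log2 difference 7.98, SE 0.71; adjusted p 3.3e-10). Col13a1 was at 32.8, 12.2 and 18.3 CPM on day 10, at least 431-fold above the floor in MEFs. Col15a1, a basement membrane proteoglycan chain abundant around muscle fibres, rose from 30.6, 3.02 and 15.8 to 211, 186 and 295 CPM (log2 difference 3.81, SE 0.90; adjusted p 0.00066). Of the calls, 6 of 10 on day 2 and 16 of 24 on day 10 were kept whichever 1 library was left out; Col6a6, called lower on day 2 (log2 difference -3.17, SE 1.22; adjusted p 0.044), and Col4a3, called lower on day 10 (log2 difference -4.09, SE 1.30; adjusted p 0.0087; adjusted p 0.064 without MEF replicate 2), were among those lost. The call of Col6a6 was lost without any 1 of 5 libraries (adjusted p 0.08 to 0.17).

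**Figure D2:**
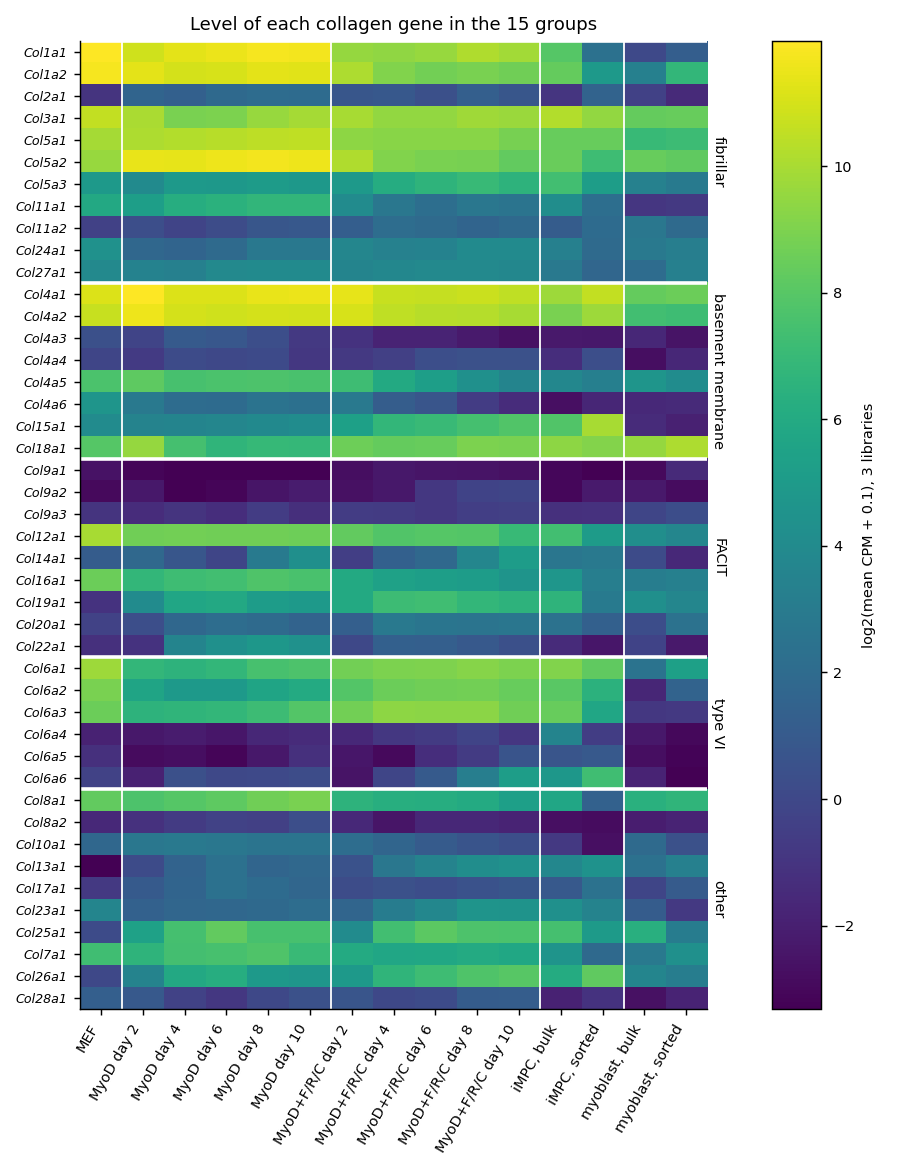
Mean level of the 44 collagen genes (lines, ordered by class) in the 15 groups (columns), as log2(mean CPM + 0.1) over 3 libraries; the colour bar gives the scale. Col1a1, Col1a2 and Col4a5 stand out in MEFs and MyoD-only groups, while Col4a1 and Col4a2 are high under F/R/C as well. Type VI chains stand out in MEFs, F/R/C groups and iMPCs, and myoblasts lack most of them.

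What F/R/C adds to MyoD is the central comparison of the time course. Averaged over the 5 days, type VI collagen was higher under F/R/C in all of its 6 chains, the abundant fibrillar chains of types I and V and the type IV chains Col4a3, Col4a5 and Col4a6 were lower, and Col15a1 was raised more than any other collagen gene. Of 43 genes, 31 were called (background 22.1%), 16 higher (11.6%) and 15 lower (10.5%). The median log2 fold change was 0.20, against -0.03 over all genes. By day, 2 genes were called on day 2 (background 4.93%), 13 on day 4 (13.2%), 18 on day 6 (15.4%), 20 on day 8 (18.7%) and 22 on day 10 (23.3%). Of these, 2, 7, 9, 9 and 11 were higher, where 2.13%, 6.58%, 8.23%, 9.20% and 9.91% of all genes were. The lower ones numbered 0, 6, 9, 11 and 11, against 2.80%, 6.66%, 7.14%, 9.46% and 13.4% of all genes.

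Same-numbered libraries of both treatments deviated together on days 2, 4 and 6 (correlation of deviations over 0.1 in every pair). With the replicate number as a block, 4 genes were called on day 2, 3 higher and 1 lower. The 2 genes called on day 2 without it were Col19a1, at 56.4, 81.4 and 50.6 CPM against 15.3, 19.2 and 15.4 CPM (log2 difference 1.92, SE 0.50; adjusted p 0.014), and Col24a1, at 13.6, 7.92 and 16.6 CPM against 3.02, 3.38 and 3.64 CPM (log2 difference 1.92, SE 0.56; adjusted p 0.026). The groups did not overlap for either gene. Neither call was kept under every omission of 1 library: no gene was called by edgeR without MyoD-only replicate 1 (8 at an unadjusted p under 0.05) or replicate 3 (10), while DESeq2 called 5 with all libraries and edgeR 11 when only these 2 groups were fitted. On day 4 the count was 7 without F/R/C replicate 2 and 8 without F/R/C replicate 3 or MyoD-only replicate 1; on day 6 it was 10 and 11 without F/R/C replicates 2 and 3. Of the 31 calls of the average, 29 were kept whichever 1 library was left out, the exceptions being Col5a1 and Col6a4. Col17a1 was lost without all libraries numbered 2 (adjusted p 0.062), a choice made after seeing the data. The fit takes all libraries as independent, but same-numbered libraries of different days may share a source. In both treatments replicate 3 had the highest and replicate 2 the lowest summed type VI TPM on every day. Correlation between days was not tested, leaving out 1 library cannot show it, and p-values of the average do not take it into account.

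All 6 type VI chains were called higher over the 5 days (background 11.6%). Col6a2 was at 393, 193 and 549 CPM on day 4 and 247, 125 and 641 CPM on day 10 under F/R/C, against 24.3, 12 and 54.2 CPM and 77.6, 11.7 and 104 CPM with MyoD alone. Its log2 fold change was 3.02, SE 0.34 over the 5 days (adjusted p 4e-09). The treatments did not overlap on any of the 5 days. Col6a1 (1.89, SE 0.32, adjusted p 7.4e-06) was at 557, 262 and 686 CPM on day 4 against 87.8, 41.6 and 154 CPM, and Col6a3 (2.05, SE 0.44, adjusted p 0.00016) at 517, 312 and 1134 CPM against 54.9, 27.2 and 234 CPM. For Col6a1 the treatments overlapped on days 8 and 10, and for Col6a3 on day 10. MyoD-only replicate 3 was the highest of its group for Col6a1, Col6a2 and Col6a3 on every day, and replicate 2 was the lowest.

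On day 10 alone, Col6a2, Col6a5 and Col6a6 were called. The call of Col6a2 was lost without F/R/C replicate 3 (adjusted p 0.075), and that of Col6a5 without F/R/C replicate 3 or MyoD-only replicate 1 or 3 (0.21, 0.065 and 0.13) and, at 0.053, with the replicate block. The rarer type VI chains followed other courses. Col6a6 had at most 0.229 CPM on day 2 in both treatments and on day 10 reached 60.5, 16.7 and 31.6 CPM under F/R/C against 0.463, 1.59 and 1.19 CPM without (log2 difference 5.07, SE 0.85; adjusted p 3.4e-05). Its response on day 10 minus that on day 2 was 6.14, SE 1.79 (adjusted p 0.031), a call lost without any 1 of 6 libraries (adjusted p 0.053 to 0.1). Over the group, Col6a6 had 5 reads under F/R/C and 10 without on day 2, and 53 and 73 on day 4. Its higher average thus came from later days. Col6a5 reached 0.715, 0.876 and 2.79 CPM under F/R/C on day 10. It had 2 reads under F/R/C and 3 without on day 4, and 18 and 1 on day 6, so that its average is poorly determined. Col6a4 stayed at or under 1.14 CPM in every library of the time course, and its call over the 5 days (adjusted p 0.027) was lost without F/R/C replicate 1 of day 2, 4 or 6 (adjusted p 0.063, 0.062 and 0.054). Of the fibroblast markers, Pdgfra was at 35.5, 6.43 and 68.5 CPM under F/R/C on day 10 and 15.3, 8.57 and 40.1 CPM without, and Dcn, a proteoglycan of fibroblasts, at 25, 10.5 and 84.2 and 1.67, 0.347 and 27.8 CPM. The whole list of 9, most of it Fn1, summed to 1535, 644 and 1617 CPM under F/R/C and 20341, 11394 and 13303 CPM without. All 9 had reads in both groups. By group mean, Pdgfra, Pdgfrb, Lum, Dcn and Postn were higher under F/R/C, and Thy1, Twist2, Prrx1 and Fn1 lower, with Thy1 at 159.8, 44.5 and 274 CPM against 655, 196 and 1116 CPM and Twist2 at 14, 3.65 and 9.68 CPM against 21.3, 11.2 and 58.4 CPM. Their part in the result was not tested.

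The stretches before the gene starts are shown because Col6a2, Col6a3 and Col13a1 were all higher under F/R/C. RefSeq promoter windows (GRCm38.p6) matched 35 of the 44 genes, 38 windows in all. Overlap with annotated exons was checked only for Col6a1, Col6a2, Col6a3 and Col13a1. Col6a1 overlapped an exon and is not printed. The 250 bases before the start are printed for the other 3, 5′ to 3′ on the gene's minus strand. E-boxes (CANNTG, the motif that MyoD and its relatives bind) and GC boxes (GGGCGG or CCGCCC) are in capitals.
Col6a2, chr10:76623631-76623880: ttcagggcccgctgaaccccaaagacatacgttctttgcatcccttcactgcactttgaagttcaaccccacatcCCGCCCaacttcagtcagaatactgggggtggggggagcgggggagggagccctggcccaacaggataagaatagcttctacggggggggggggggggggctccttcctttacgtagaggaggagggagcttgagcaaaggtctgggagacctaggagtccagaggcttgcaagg
Col6a3, chr1:90843972-90844221: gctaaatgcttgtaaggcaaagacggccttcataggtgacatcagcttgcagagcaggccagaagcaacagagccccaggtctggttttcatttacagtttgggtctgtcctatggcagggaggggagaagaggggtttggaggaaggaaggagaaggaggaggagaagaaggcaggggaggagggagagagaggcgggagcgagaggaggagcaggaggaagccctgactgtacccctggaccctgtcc
Col13a1, chr10:61979109-61979358: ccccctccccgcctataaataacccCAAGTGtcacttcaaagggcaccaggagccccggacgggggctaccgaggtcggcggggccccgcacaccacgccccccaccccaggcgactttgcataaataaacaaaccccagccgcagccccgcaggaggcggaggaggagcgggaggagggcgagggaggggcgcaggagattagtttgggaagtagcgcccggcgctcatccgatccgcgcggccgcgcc
The stretch of Col6a2 held 1 GC box and no E-box, that of Col6a3 neither, and that of Col13a1 a single E-box, CAAGTG. An E-box occurred in 19 of the 38 collagen stretches and in 66.2% of all 32851 stretches of the same length, and a GC box in 22 of 38 and in 32.7% of all. The sequence CAGCTG, the E-box form preferred by MyoD, was in 6 of 38 and in 13.0% of all. Both strands were searched. A match is a description of these letters and not a binding site. In GENCODE M21, Col6a1 and Col6a2 lie in the same orientation on chromosome 10, 85161 bases apart.

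Of the fibrillar chains, 8 of 11 were called over the 5 days (background 22.1%), 3 higher (11.6%) and 5 lower (10.5%). Col5a2 was at 1175, 1099 and 1088 CPM under F/R/C on day 2 and 357, 123 and 486 CPM on day 10, where MyoD alone held 3381, 1919 and 3878 CPM (log2 difference -2.48, SE 0.22; adjusted p 1.9e-11 over the 5 days). The treatments did not overlap on any day. Col11a1, a chain that nucleates thin fibrils, was at 3.97, 5.26 and 8.51 CPM on day 10 against 198, 67.7 and 53.4 CPM (log2 difference -3.44, SE 0.45; adjusted p 8.8e-08 over the days). Col1a1 fell by 1.72 and Col1a2 by 2.11 on the log2 scale (SE 0.34 and 0.43; adjusted p 4.5e-05 and 8.8e-05), and Col5a1 by 1.11 (SE 0.18; without MyoD-only replicate 1 of day 10 its fold was under the threshold). On day 10 the Col1a2 levels were 284, 148 and 782 CPM under F/R/C and 3715, 1046 and 2644 CPM without.

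Col3a1, the chain of type III collagen, was at 824, 348 and 1279.8 CPM on day 10 under F/R/C and 1244, 321 and 1394 CPM without, and its average difference was not called (log2 difference 0.20, SE 0.23, adjusted p 0.46). The chains raised were minor ones: Col24a1 (1.54, SE 0.24), Col5a3 (1.51, SE 0.35) and Col11a2 (1.42, SE 0.18). Col5a3 reached 88.1, 91.4 and 199 CPM on day 8 under F/R/C against 29.7, 15.6 and 54.2 CPM. The ratio of Col1a1 to Col1a2 TPM, 1.27, 1.04 and 0.975 in MEFs, was 1.37, 1.15 and 1.24 on day 10 of MyoD alone and 2.35, 1.96 and 2.21 under F/R/C, where all libraries lay above all of the others just named. Fn1, the fibronectin gene, was at 837, 323 and 590.2 CPM under F/R/C on day 10 and 19212, 11001 and 11586 CPM without; its part in the result was not tested.

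The most abundant basement membrane chains, Col4a1 and Col4a2, were not called (log2 difference -0.66, SE 0.18 and -0.66, SE 0.16; adjusted p 0.0021 and 0.00062, under the fold threshold). Col4a1 was at 1671, 1119 and 1650.3 CPM under F/R/C and 4622, 1317 and 2789.6 CPM without on day 10. These genes stand head to head on chromosome 8, on opposite strands, and their annotated starts overlap by 22 bases (11312805 to 11312826 in GRCm38.p6). Whether the counting used strand is not given in the sources used here, so reads from that overlap cannot be assigned. The other type IV chains parted from them. Col4a5 was at 132, 193 and 119, 56.3, 32.5 and 24.1 and 13.0, 9.74 and 13.1 CPM on days 2, 6 and 10 under F/R/C, and at 255, 145 and 175 CPM on day 10 of MyoD alone (log2 difference -2.45, SE 0.17; adjusted p 1.2e-13 over the days).

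Col4a6, whose start lies 1308 bases from that of Col4a5 on the X chromosome, was not called on day 2 (7.06, 8.35 and 6.54 CPM under F/R/C, 7.35, 8.60 and 5.80 CPM without; adjusted p 1.0) and was 0.397, 0.195 and 0.247 CPM against 7.64, 3.02 and 4.11 CPM on day 10 (log2 difference -4.10, SE 0.68; adjusted p 2.6e-05). Col4a3, of the kidney and lung type IV network, was lower under F/R/C over the days (-2.72, SE 0.54, adjusted p 5.4e-05) at levels up to 4.28 CPM. Col4a4, which starts 71 bases away from Col4a3 in the opposite direction, was not called (0.28, SE 0.37, adjusted p 0.54).

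The multiplexins, basement membrane collagens whose ends release anti-angiogenic fragments, were both higher. Col15a1 was at 33.8, 29.7 and 62.2 CPM on day 2 and 211, 186 and 295 CPM on day 10 under F/R/C, and at 9.15, 7.80 and 17.5 CPM and 18.1, 7.43 and 26.2 CPM with MyoD alone (log2 difference 3.14, SE 0.39; adjusted p 3e-08 over the days). Col18a1 was at 309, 321 and 530.4 CPM on day 2 against 438, 726 and 1090.4 CPM, and at 356, 171 and 878 CPM on day 10 against 97.7, 44.8 and 214 CPM. The treatments overlapped on both days. The mean was lower under F/R/C on day 2, where the gene was not called, and higher on day 10, with replicate 3 the highest of each treatment (log2 difference 1.98, SE 0.62; adjusted p 0.011). Without F/R/C replicate 3 the adjusted p was 0.097, and without MyoD-only replicate 2 it was 0.05.

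Among the FACITs, Col19a1 was higher under F/R/C on each day (1.61, SE 0.22 over the days, adjusted p 1.9e-07) and peaked on day 6, at 149, 187 and 142 CPM against 48.4, 79.8 and 49.3 CPM. Col22a1 went the other way: on day 8 it was at 2.34, 1.22 and 1.89 CPM under F/R/C and 31.9, 46.0 and 3.97 CPM without (log2 difference -3.91, SE 0.93; adjusted p 0.0017). Col16a1 was lower (-2.08, SE 0.26). Col9a2 was called higher (2.75, SE 0.46) at no more than 1.06 CPM, and it had no reads on day 4 of MyoD alone, so that its average is poorly determined; on day 4 it was at least 1.96-fold higher, and on day 6 the ratio was 25.9 (95% exact Poisson interval 4.65 to 1023). Col12a1, the most abundant FACIT, was at 171, 41.8 and 172 CPM on day 10 under F/R/C and 609.9, 207 and 349 CPM without, below the fold threshold over the days (-0.86, SE 0.33, adjusted p 0.022).

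Of the 10 other collagens, 3 were higher (background 11.6%) and 5 lower (10.5%). On day 10 Col26a1 was at 301, 271 and 203 CPM under F/R/C, against 21.9, 39.5 and 16.5 CPM without (log2 difference 3.32, SE 0.59; adjusted p 5.6e-05). Col13a1 (1.59, SE 0.35) and Col23a1 (1.76, SE 0.39), both transmembrane, were also higher. Col8a1, a network collagen of vessels and wounds, was at 56.6, 20.6 and 41.9 CPM against 767, 222 and 441 CPM on day 10 (log2 difference -3.58, SE 0.78; adjusted p 0.00054), and Col7a1, the anchoring fibril collagen, Col8a2, Col10a1 and Col17a1 were lower as well. Col25a1 was not called (log2 difference -0.28, SE 0.30, adjusted p 0.44) although it lay far above MEFs in both treatments, at 233, 357 and 246 CPM under F/R/C on day 6 and 212, 436 and 311 CPM without.

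**Figure D3:**
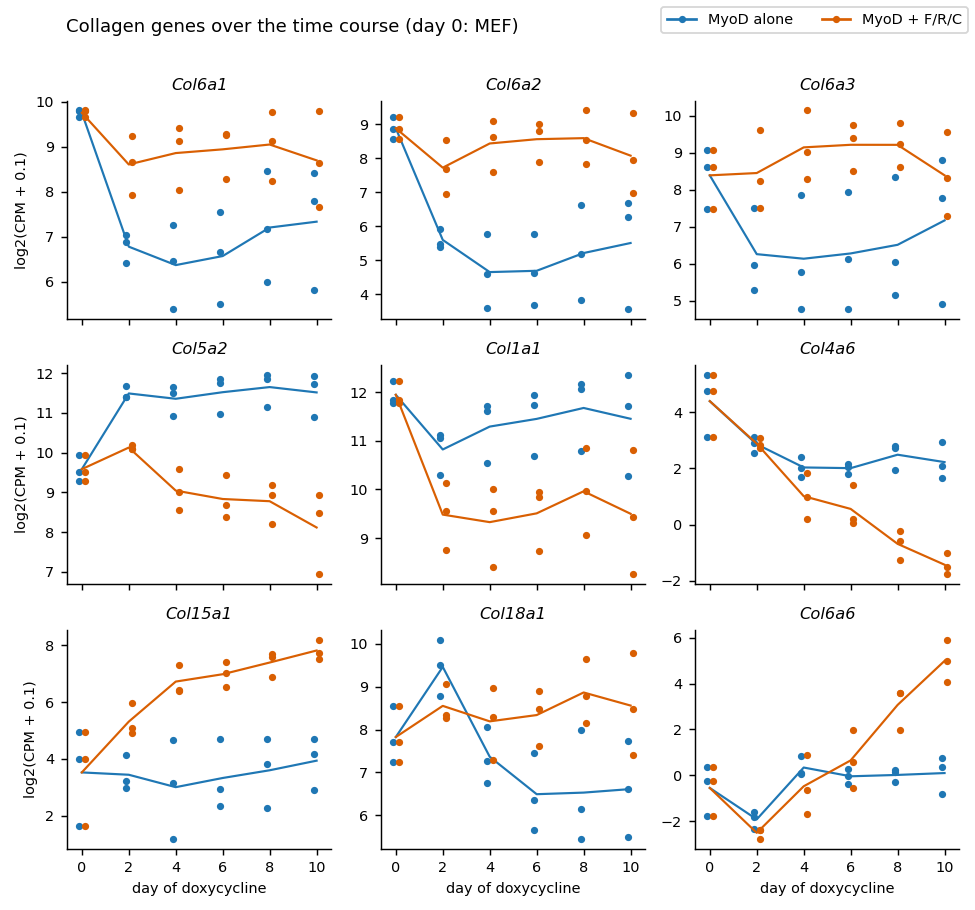
Levels of 9 collagen genes, as log2(CPM + 0.1), from MEFs (day 0) through days 2 to 10 of MyoD alone (blue) or under F/R/C (orange); points are libraries and lines join the means of 3. The lines of Col6a1, Col6a2 and Col6a3 stand apart from day 2, where none of these genes was called, and Col5a2 lies above the MEF level on all days of MyoD alone.

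**Figure D4:**
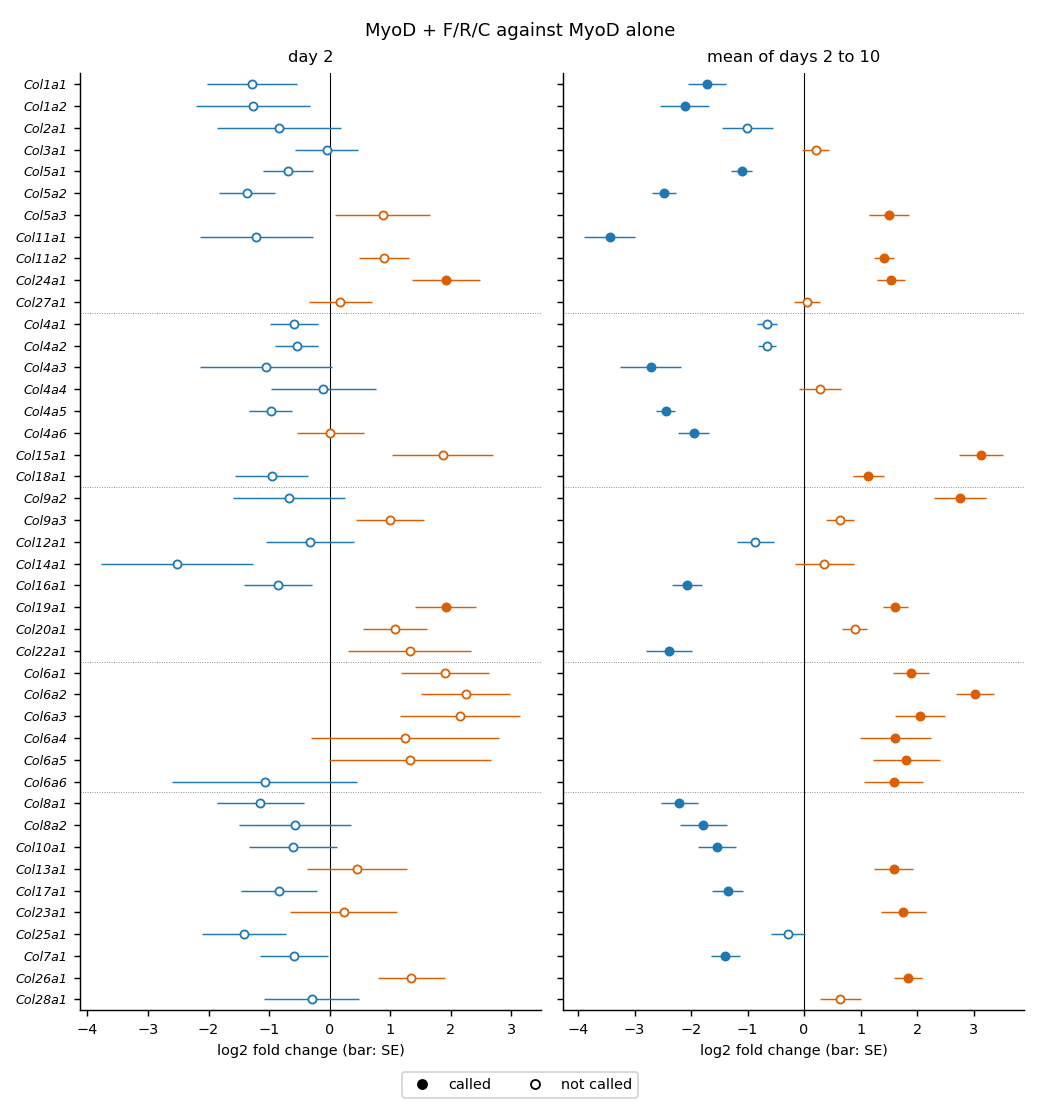
Log2 fold change of F/R/C over MyoD alone for each collagen gene tested, on day 2 and as the mean of 5 days; bars are the SE and filled points are called. All 6 type VI chains lie to the right in the mean, from 1.58 for Col6a6 to 3.02 for Col6a2.

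Whether the response to F/R/C differed between day 10 and day 2 was tested as the difference of both effects. It differed for 5 genes (background 6.01%), 2 with a more positive effect on day 10, Col6a6 and Col18a1 (2.24%), and 3 with a more negative one, Col22a1, Col4a6 and Col4a5 (3.77%). The difference for Col4a5 was -3.02, SE 0.51 (adjusted p 0.0011). Those of Col4a6 and Col4a5 were kept whichever 1 library was left out. Without every library numbered 2, an alternative added after seeing the data, edgeR called none (12 at an unadjusted p under 0.05), and DESeq2 called 6 with all libraries.

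Genes that fold, trim and cross-link collagen were taken from a list of 42, of which 41 were tested. With MyoD alone 7 were called on day 2 against MEFs (background 22.4%), 1 higher (12.3%) and 6 lower (10.1%), and 1 on day 10 (18.9%), Ddr1, a collagen receptor, which was higher. With F/R/C on day 10, 23 were called against MEFs (background 34.8%), 2 higher (19.0%) and 21 lower (15.8%). Against MyoD alone over the 5 days 17 were called, 2 higher and 15 lower, where the shares over all genes were 11.6% and 10.5%. The 2 higher were Tll2 and Adamts2, both listed under propeptide removal. All 5 cross-linking enzymes were among the lower ones. Lox, lysyl oxidase, was at 25.8, 11.9 and 35.2 CPM on day 10 under F/R/C and 515, 369 and 274 CPM without (log2 difference -3.27, SE 0.32; adjusted p 2e-10 over the days), and Loxl4 at 2.11, 1.46 and 3.81 and 58.1, 35.0 and 53.3 CPM (-3.19, SE 0.25). Every F/R/C library of day 10 lay below every MyoD-only library for both. Bmp1 (-1.59, SE 0.19), which cuts the C-terminal propeptide, Plod2 (-1.51, SE 0.12), a lysyl hydroxylase, and Fkbp10 (-1.61, SE 0.14), a chaperone that acts with it, were lower too. Serpinh1, the collagen chaperone, was at 781, 576 and 605 CPM under F/R/C and 1696, 866 and 1173 CPM without on day 10 and stayed under the fold threshold over the days (-0.65, SE 0.10, adjusted p 1.3e-06).

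Established bulk iMPCs were set against MEFs, their source. In them 28 collagen genes were called (background 35.5%), 13 higher (19.2%) and 15 lower (16.2%), with a median log2 fold change of -0.69 against 0.08 over all genes. Col1a1 had fallen from 4817, 3647 and 3496 to 264, 251 and 227 CPM (log2 difference -4.01, SE 0.82; adjusted p 0.00014), Col4a6 to 0.109, 0 and 0.0538 CPM (log2 difference -8.70, SE 0.84; adjusted p 8.8e-10) and Col4a5 to 10.4, 18.4 and 11.7 CPM (log2 difference -3.88, SE 0.40; adjusted p 2.9e-09). Col19a1 (8.06, SE 0.71) and Col25a1 (7.40, SE 0.93) had risen, to 115, 90.4 and 92.6 CPM and 146, 230.1 and 145 CPM, and Col13a1 was at least 269-fold above the MEF floor. Col6a1, Col6a2 and Col6a3 were not called (adjusted p 0.44, 0.32 and 0.92); Col6a1 was at 426, 764 and 449 CPM. The call of Col6a4 rested on replicate 2, with 0.328, 35.0 and 0.215 CPM in the 3 libraries; without it the adjusted p was 0.67.

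Bulk iMPCs were set beside day 10 under F/R/C, and 5 collagen genes were called (background 9.57%), of which 1 was higher (3.33%) and 4 lower (6.24%). Those lower were Col9a2, with 2 reads in the bulk iMPCs and a ratio of 45.7 (95% exact Poisson interval 12.7 to 378), Col28a1 (-3.59, SE 0.89), Col26a1 (-1.91, SE 0.55) and Col4a2 (-1.08, SE 0.36). Col4a2 was at 427, 502 and 499 CPM in bulk iMPCs and 1221, 789 and 1017 CPM on day 10. The 1 gene higher was Col6a4, and without bulk iMPC replicate 2 its adjusted p was 0.71 and its direction turned (log2 fold change -0.73). Only the call of Col9a2 was kept whichever 1 library was left out: that of Col28a1 was lost without F/R/C replicate 3 (adjusted p 0.18), that of Col26a1 without bulk iMPC replicate 2 (0.072), and that of Col4a2 without F/R/C replicate 1 (0.12) or any bulk iMPC library (0.1, 0.062 and 0.057). DESeq2 called 8. The 3 bulk iMPC libraries are among the 4 deepest, so depth and this group cannot be told apart.

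iMPCs were last compared with myoblasts, cells of the same lineage grown from muscle, once in bulk and once after sorting for the Pax7 reporter. In bulk, 24 collagen genes were called (background 19.6%), 22 higher in iMPCs (10.9%) and 2 lower (8.70%). Among sorted cells, 24 were called (background 30.0%), 18 higher (12.4%) and 6 lower (17.6%). The medians were 1.54 and 1.15 for collagen genes against 0.01 and -0.07 over all genes. All 6 type VI chains were higher in iMPCs in both comparisons, and so were Col15a1, Col4a1, Col4a2 and Col5a1. The sorted call of Col5a1 was lost without iMPC replicate 2 or myoblast replicate 1 or 3 (adjusted p 0.067, 0.05 and 0.11).

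Myoblasts had little type VI RNA. Col6a2 was at 223, 363 and 218 CPM in bulk iMPCs and 0.0449, 0.351 and 0.255 CPM in bulk myoblasts (log2 difference 10.11, SE 1.10; adjusted p 8.5e-08). Col6a3 was at 314, 353 and 345 and 0.179, 1.03 and 0.182 CPM (log2 difference 9.36, SE 1.41; adjusted p 8.8e-06). In sorted cells Col6a1 was at 155, 369 and 392 CPM in iMPCs and 27.1, 89.3 and 6.20 CPM in myoblasts (log2 difference 2.90, SE 0.76; adjusted p 0.002), where myoblast replicate 2 was highest. Col6a3 was at 62.3, 95.6 and 2.43 and 0.388, 0.424 and 0.598 CPM (log2 difference 6.85, SE 1.32; adjusted p 7.9e-05), with iMPC replicate 3 far below the other two. Col6a6 had no reads in sorted myoblasts and 27.5, 321 and 121 CPM in sorted iMPCs, at least 4068-fold above a floor of 3 reads over the group (adjusted p 6.4e-09).

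The calls of Col6a4 rested on single libraries: without bulk iMPC replicate 2 the bulk call was lost (adjusted p 0.32), and without sorted iMPC replicate 1 or sorted myoblast replicate 1 or 3 the sorted one (0.4, 0.12 and 0.1). Fibroblast markers differed beside type VI in bulk, and not all in the same direction. Pdgfra was at 44.3, 508 and 13.1 CPM in bulk iMPCs and 0.583, 2.03 and 0.328 CPM in bulk myoblasts, and Dcn at 23.5, 511 and 19.5 and 0, 0.401 and 0 CPM. The whole list summed to 1319, 2536 and 1324 CPM and 7208, 924 and 2421 CPM, with 1 of its 9 genes, Lum, without reads in bulk myoblasts. By group mean the sum was lower in bulk iMPCs (1726 against 3518 CPM), opposite to Pdgfra and Dcn. Of the 9 genes, however, 5 averaged under 1 CPM in bulk myoblasts and 0 in bulk iMPCs. The higher sum of bulk myoblasts thus came from few genes, and replicate 1 held the most. Bulk myoblast replicate 2 lay below every bulk iMPC library in this sum. Bulk myoblasts also ranged widely in differentiation genes, from 1143 to 32751 CPM. In sorted iMPCs Col6a1 stood beside Pdgfra at 21.5, 1.09 and 0.0517 CPM, Dcn at 32.2, 0.970 and 2.17 CPM and Lum at 0.217, 0 and 0.207 CPM. Other fibroblast markers were higher there, Pdgfrb at 122, 135 and 53.3 CPM, Prrx1 at 271, 309.7 and 202 CPM and Postn at 1.13, 88.3 and 147 CPM, against 0.847, 16.7 and 0 CPM, 189, 161 and 94.4 CPM and 0.459, 10.6 and 1.52 CPM in sorted myoblasts. For Postn, sorted iMPC replicate 1 lay within the range of sorted myoblasts. The whole list summed to 1912, 1233 and 1102 CPM in sorted iMPCs and 899, 2580.0 and 351 CPM in sorted myoblasts. The part of these markers in the type VI results was not tested.

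Col15a1 stood out in both comparisons. It was at 130.3, 143 and 410.4 CPM in bulk iMPCs and 0.0897, 0.726 and 0 CPM in bulk myoblasts (log2 difference 9.46, SE 1.22; adjusted p 9.3e-07), and at 99.2, 1388 and 1499 CPM in sorted iMPCs and 0.0353, 0.353 and 0.109 CPM in sorted myoblasts (log2 difference 12.45, SE 1.37; adjusted p 1.6e-08). Sorted iMPC replicate 1 lay well below the other two. Col4a1 and Col4a2 were also higher among sorted cells (2.03, SE 0.42 and 2.55, SE 0.38; adjusted p 0.00016 and 1.8e-06). Col18a1 was not called in either comparison (adjusted p 0.87 and 0.18) and was the most abundant multiplexin of myoblasts, at 1551, 898 and 891 CPM in sorted ones.

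Type I collagen was called higher in bulk iMPCs and not in sorted ones. Col1a1 was at 264, 251 and 227 CPM in bulk iMPCs and 0.314, 2.05 and 0.400 CPM in bulk myoblasts (log2 difference 7.97, SE 1.01; adjusted p 7.8e-07). Among sorted cells it was at 12, 2.79 and 0.413 and 2.65, 3.92 and 0.380 CPM and was not called (adjusted p 0.26); the difference between both comparisons was not tested. Col3a1 was the leading fibrillar transcript of sorted iMPCs, at 940.0, 939 and 329 CPM. In bulk 2 genes were lower in iMPCs, Col10a1 (-2.98, SE 0.80), the chain of type X collagen, known from growth cartilage, and Col11a2 (-1.67, SE 0.40).

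Among sorted cells the 6 lower in iMPCs were Col8a1, at 6.33, 1.58 and 0 CPM against 146, 128 and 41.8 CPM (log2 difference -5.30, SE 0.86; adjusted p 8.2e-06), Col10a1 (-4.31, SE 1.05), Col7a1 (-2.50, SE 0.61), Col9a3 (-1.69, SE 0.54), Col27a1 (-1.64, SE 0.54) and Col24a1 (-1.30, SE 0.54). The last 3 were lost on leaving out single libraries: Col9a3 without iMPC replicate 1 (adjusted p 0.072), Col27a1 without iMPC replicate 3 or myoblast replicate 1 (0.082 and 0.095), and Col24a1 without iMPC replicate 2 or 3 or myoblast replicate 1 or 2 (0.11, 0.23, 0.14 and 0.16). In bulk the calls of Col11a1 and Col6a4 were lost without bulk iMPC replicate 2 (adjusted p 0.34 and 0.32). Those of Col16a1, Col4a1, Col5a1 and Col7a1 were lost without other single libraries: Col16a1 without bulk myoblast replicate 1 or bulk myoblast replicate 2 or bulk iMPC replicate 2 (adjusted p 0.12 and 0.15 and 0.21), Col4a1 without bulk myoblast replicate 3 (adjusted p 0.054), Col5a1 without bulk myoblast replicate 2 (adjusted p 0.054) and Col7a1 without bulk myoblast replicate 1 or bulk iMPC replicate 1 (adjusted p 0.093 and 0.12). Of 24 calls each, 18 in bulk and 14 among sorted cells were kept whichever 1 library was left out. When the fit held only the groups compared, 14 and 15 were called. Of the maturation genes, 17 were called in bulk (background 19.6%), 13 higher in iMPCs (10.9%) and 4 lower (8.70%). Among sorted cells 13 were called, where 30.0% of all genes were, 6 higher (12.4%) and 7 lower (17.6%). Lox and Loxl2 were higher in both, and Loxl1, Loxl3 and Loxl4 lower among sorted cells; the difference between both comparisons was not tested.

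**Figure D5:**
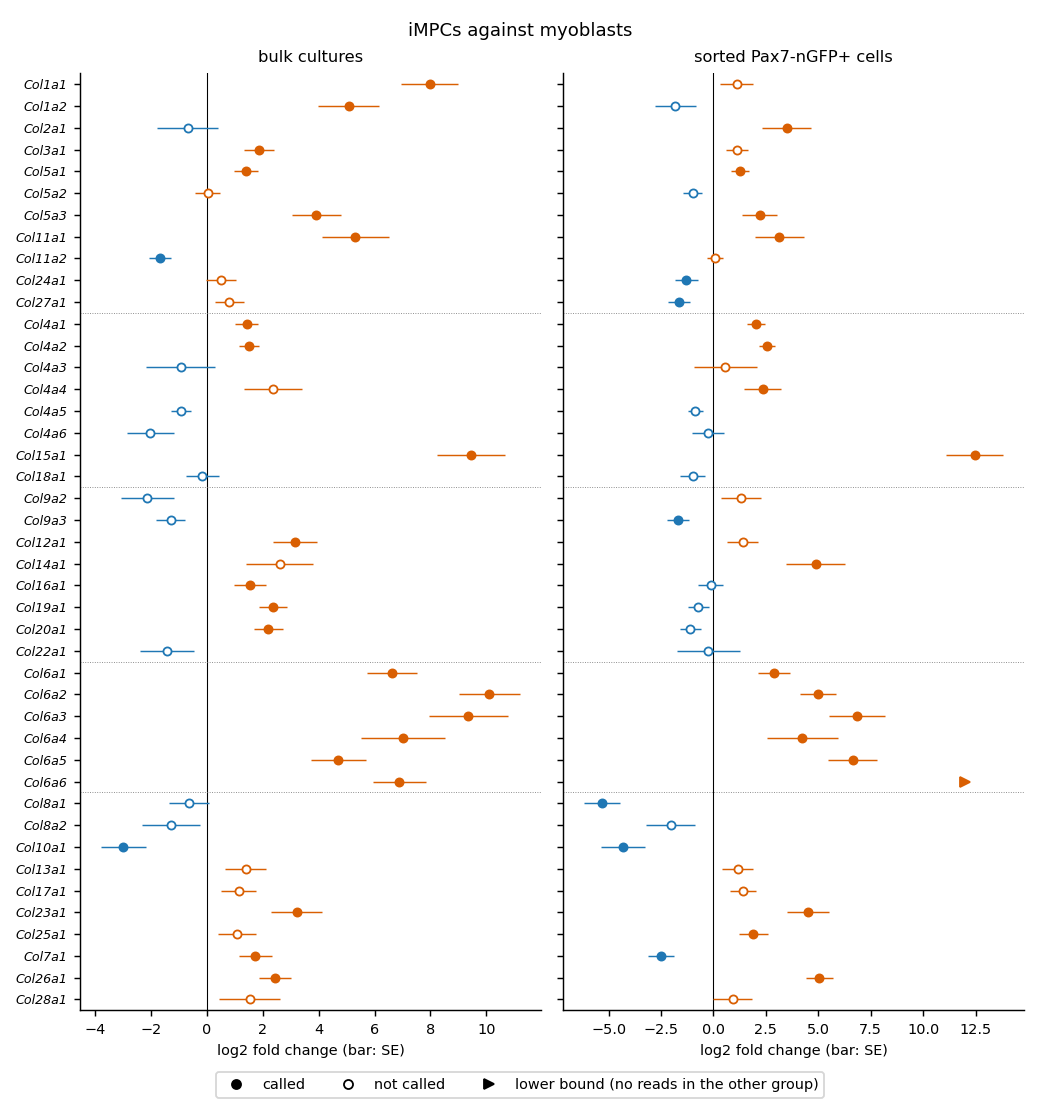
Log2 fold change of iMPCs over myoblasts for each collagen gene tested, in bulk (left) and among sorted cells (right); bars are the SE, filled points are called, and the triangle is a lower bound for Col6a6, which had no reads in sorted myoblasts. Type VI chains and Col15a1 lie to the right of 0 in both panels.

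Sorted cells differed from their bulk cultures. Sorted iMPCs had 20 collagen genes called against bulk iMPCs (background 30.3%), 6 higher (9.88%) and 14 lower (20.5%). Col1a1 was lowest among these (log2 difference -5.60, SE 0.90; adjusted p 8.1e-06), followed by Col8a1 (-4.33, SE 0.83) and Col6a4 (-4.32, SE 1.25), whose direction turned without bulk iMPC replicate 2 (log2 fold change 1.14, adjusted p 0.4). Col15a1 (log2 difference 2.13, SE 0.83; adjusted p 0.034) and Col26a1 (2.12, SE 0.56) were higher; the call of Col15a1 was lost without sorted replicate 2 or 3 or bulk replicate 1 or 2 (adjusted p 0.087, 0.11, 0.12 and 0.1). Col2a1 (2.79, SE 1.09) and Col6a6 (2.49, SE 0.73) were called higher at 3.86, 1.17 and 3.62 CPM and 27.5, 321 and 121 CPM, calls lost without single libraries (Col6a6 without sorted replicate 2, adjusted p 0.11, and Col2a1 without any 1 of 5 libraries, 0.065 to 0.1). Only 7 of the 20 calls were kept whichever 1 library was left out, and the count was 8 without bulk iMPC replicate 2 and 10 without sorted replicate 3. Differentiation genes of muscle summed to 1377, 1898 and 1424 CPM in sorted and 28355, 21915 and 23302 CPM in bulk iMPCs, and sorting also went with another fragment-length setting of the deposited estimates (median length lost 180.03 bases in sorted and 153 bases in other libraries). Sorting and that setting cannot be told apart.

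Sorted myoblasts had 5 genes called against bulk myoblasts (background 6.23%), 4 higher (2.20%) and 1 lower (4.03%). Higher were Col6a2 (3.55, SE 0.98), Col1a2 (3.48, SE 1.03), Col6a1 (2.88, SE 0.77) and Col20a1 (2.24, SE 0.53), and Col25a1 was lower (-3.25, SE 0.74). Sorted replicate 2 held the highest level of Col6a1, Col6a2 and Col1a2 (Col1a2 29.5, 302 and 1.30 CPM), and without it their adjusted p was 0.21, 0.16 and 0.75. The calls of Col6a1, Col6a2 and Col1a2 were also lost without bulk replicate 1 (adjusted p 0.071, 0.072 and 0.11), those of Col6a2 and Col1a2 without bulk replicate 3 (0.05 and 0.078), and that of Col25a1 without bulk replicate 2 (0.12). Fitted on these 2 groups alone, edgeR called none (7 of 30 genes at an unadjusted p under 0.05), and DESeq2 called 8.

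Partner chains were not always made in a fixed ratio. Col4a1 and Col4a2, which form a heterotrimer, kept a ratio of TPM between 1.75 and 2.70 in MEFs and the time course, and were at 5.71 to 7.07 in sorted myoblasts. As CPM per kilobase the ratio was 0.974 to 1.58 in MEFs and the time course and 2.28 to 2.53 in sorted myoblasts, where the full-length transcript Col4a1-201 held 13.3% of the gene's TPM, against 46.5% in MEFs. For Col6a1 to Col6a2 the ratio was 1.40, 1.77 and 1.98 in MEFs, 1.25, 1.19 and 1.11 on day 6 under F/R/C, 3.80, 3.24 and 3.13 on day 6 of MyoD alone and 61.5, 17.2 and 30.9 in bulk myoblasts, where Col6a2 was near 0. No library of MyoD alone from day 4 on overlapped those under F/R/C. Col1a1 to Col1a2 was 0.121, 0.0991 and 0.106 in sorted iMPCs and 3.125, 0.560 and 0.996 in bulk iMPCs. Myoblasts were low as well, at 0.128, 0.108 and 0.127 in bulk and 0.0858, 0.0295 and 0.252 in sorted ones. These ratios rest on few reads of Col1a1, 100 over bulk and 193 over sorted myoblasts. As CPM per kilobase, bulk myoblast replicate 3 was at 0.0484. TPM leans on short transcripts in some groups. A 345-base transcript of Col15a1 held 35.8% of that gene's TPM in sorted iMPCs and 41.4% in bulk iMPCs. It held 34.05% in MEFs, 25.15% on day 10 under F/R/C and 7.02% on day 2 of MyoD alone. A 280-base transcript of Col26a1 held 60.9% in sorted iMPCs, against 1.63% on day 10 under F/R/C.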

How the data were processed

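Bulk poly-A RNA-seq was made from 45 mouse libraries with a stranded kit and 100-base single-end reads, per the labels' protocols. Per the submitters' processing notes, the tools named are bcl2fastq 2.19, Trimmomatic 0.36, kallisto 0.44 and edgeR 3.28, and the build is GRCm38.p6. The authors deposited an estimated count and a TPM value for each of 121843 transcripts in each library; of these, 121104 matched GENCODE M21 and were summed to 35675 genes, and 739 were left out. Deposited TPM values were summed per gene. For the tests, summed estimated counts were rounded to whole numbers; 16 of the 44 collagen genes already had whole sums in all libraries (tolerance 0.001).

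Groups came from the labels. edgeR 4.0.16 (R 4.3.3, limma 3.58.1) fitted the 15 groups in one quasi-likelihood model with TMM scaling and filterByExpr, which kept 17325 genes and left 30 residual degrees of freedom; p-values were Benjamini-Hochberg adjusted over those genes. Library depth of 15.6 to 36.3 M reads limits precision for genes with few reads, and intervals and floors of 3 reads cover counting error only. The fitting procedure was tested on simulated data. Alternatives were DESeq2 1.42.0, its size factor method (RLE) in edgeR, no filter, only the groups compared, the replicate number as a block, leaving out each library, and, added after seeing the data, leaving out all libraries numbered 2 and CPM per kilobase. Figures used Python 3.11.15, pandas 2.3.3 and matplotlib 3.10.9, with a pseudocount of 0.1.

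The members and lists were chosen with earlier results of these data known. Genes are named by rule: in each class the 3 with the highest mean TPM, in each comparison up to 3 called genes in each direction with the largest fold change, and every called gene where 5 or fewer were called. Other genes named were chosen after their values were seen. Pairing rests on the replicate numbers in the labels: deviations from group means correlated over 0.1 in every same-numbered pair only between MyoD alone and MyoD with F/R/C on days 2, 4 and 6 (mean r 0.364, 0.2974 and 0.295).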

Additional observations from a re-analysis of the deposited data

Results flagged for a closer look

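For 5 collagen genes the effect of F/R/C over MyoD alone on day 10 differed from that on day 2, tested as the difference between both log2 fold changes in edgeR's fit. It was 6.14 for Col6a6 and 2.94 for Col18a1, for which the effect was more positive on day 10, and -5.41 for Col22a1, -4.12 for Col4a6 and -3.02 for Col4a5, for which it was more negative. Adjusted p was 0.031, 0.03, 0.015, 0.0059 and 0.0011 in that order. Without MyoD-only replicate 3 of day 2, the calls of Col6a6, Col18a1 and Col22a1 were lost (adjusted p 0.1, 0.084 and 0.057). That library was not the only one. Of 12 omissions of a single library, the call of Col18a1 was lost in 7 (adjusted p 0.055 to 0.084). The call of Col6a6 was lost in 6 (0.053 to 0.1) and that of Col22a1 in 3 (0.054 to 0.059).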

How the results depend on the processing

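Counts of collagen genes called were compared over the alternatives. Fitting only the groups compared moved them to 8 (day 10 of MyoD alone against MEFs), 11 (F/R/C on day 2), 14 and 15 (iMPCs against myoblasts, bulk and sorted), 12 (sorted against bulk iMPCs) and 0 (sorted against bulk myoblasts, edgeR, 7 at an unadjusted p under 0.05). DESeq2 moved them to 5 (F/R/C on day 2), 8 (bulk iMPCs against day 10 with F/R/C) and 8 (sorted against bulk myoblasts, DESeq2). With the replicate block, 4 genes were called for F/R/C on day 2, and the other counts stayed within 1.5 times of those without it. Leaving out all libraries numbered 2, added after seeing the data, gave 9 and 7 (MyoD alone on days 2 and 10 against MEFs), 6 (F/R/C on day 2 against MEFs), 1, 6 and 10 (F/R/C over MyoD alone on days 2, 4 and 6), 0 (day 10 minus day 2, edgeR, 12 at an unadjusted p under 0.05, 6 by DESeq2), 3 (bulk iMPCs against day 10 with F/R/C), 9 (sorted against bulk iMPCs) and 2 (sorted against bulk myoblasts). Leaving out single libraries gave 9 to 13 and 10 to 17 (MyoD alone, days 2 and 10, against MEFs), 8 to 10 and 19 to 24 (F/R/C, days 2 and 10, against MEFs), 0 to 2, 7 to 11, 10 to 15, 14 to 19 and 16 to 24 (F/R/C over MyoD alone, days 2 to 10), 31 to 33 (mean of days), 2 to 6 (day 10 minus day 2), 23 to 28 (bulk iMPCs against MEFs), 3 to 6 (against day 10 with F/R/C), 22 to 27 and 17 to 24 (iMPCs against myoblasts, bulk and sorted), 8 to 21 and 2 to 6 (sorted against bulk iMPCs and myoblasts). The log2 fold change of Col6a4 turned to -0.73 (bulk iMPCs against day 10 with F/R/C) and 1.14 (sorted against bulk iMPCs) without bulk iMPC replicate 2. Of 92 named fold changes, 91 kept direction and side of the threshold under DESeq2. With only the groups compared, 72 did, 11 fell short of the threshold, and the rest gave no value. The cause was not tested. When single libraries were left out, 65 of the 92 stayed called under every omission. Another 25 lost the call at least once, and 2 turned direction. Maturation genes called on day 10 of MyoD alone against MEFs numbered 2 by DESeq2. Depth limits genes with few reads, such as Col6a4, Col6a5 and Col9a2.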
